A study of Mus musculus with 64 samples.

Results

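The genes described here encode the neurotrophins brain-derived neurotrophic factor (Bdnf) and neurotrophin-3 (Ntf3), their receptor tyrosine kinases TrkB (Ntrk2) and TrkC (Ntrk3), the p75 neurotrophin receptor (Ngfr), and the sorting receptors sortilin (Sort1) and SorCS2 (Sorcs2). They were chosen by symbol, and 7 of the 55401 genes in the count table carry these symbols. All 7 passed the filter on low counts, which left 18971 genes to test.

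RNA was sequenced from whole hypothalamus and prefrontal cortex (PFC, labelled frontal cortex) of male C57BL/6J mice, which were 10 weeks old at injection, ate chow and lived in groups. Each mouse received psilocybin at 3 mg/kg or vehicle (isotonic saline) once by intraperitoneal injection, and tissue was taken 3 h or 4 weeks later, always 4 h after lights on. Mice in this laboratory were given saline sham injections on the 3 days before a study began, so the vehicle groups carry repeated injections too. The 32 mice gave 8 groups of 8 libraries, and 62 libraries with 8061033 to 70361839 counted reads were kept. The libraries left out, 1 from the hypothalamus of vehicle mice at 3 h and 1 from the PFC of psilocybin mice at 4 weeks, held 211111 and 200066 reads. Mice of the 4-week groups were 4 weeks older at harvest, so that time since injection, age and day of harvest cannot be told apart.

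Neurotrophins are made as precursors, which proteases cut to the mature form inside or outside the cell. The mature forms act through Trk receptors on neuronal survival, growth and synaptic strength, whereas the precursors bind p75 together with sortilin or SorCS2. In the forebrain, Bdnf is made chiefly by excitatory neurons, and its transcription follows neuronal activity through several promoters. TrkB is made by neurons and, as a truncated form without the kinase, by astrocytes. Psychedelics are studied for effects on neuronal plasticity, and the comparisons below ask whether these genes differed after psilocybin, between times and between regions.

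Bdnf (ENSMUSG00000048482.14) lies on the plus strand of chromosome 2 from 109674700 to 109727007 in GRCm38, and 11 transcripts with 9 distinct starts are annotated for it. The study counted reads against another release of the gene annotation. Its deposited count is a single sum over the whole gene, so that activity of single promoters was not measured. The activity-regulated start known as promoter IV is shown because it carries the best-known link between neuronal activity and this gene. The 250 bases before that start (RefSeq, GRCm38.p6, chr2:109692186-109692435, plus strand) hold the cAMP response element-like site TCACGTCA, printed in capitals, from 38 to 31 bases before the start.

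Bdnf promoter IV: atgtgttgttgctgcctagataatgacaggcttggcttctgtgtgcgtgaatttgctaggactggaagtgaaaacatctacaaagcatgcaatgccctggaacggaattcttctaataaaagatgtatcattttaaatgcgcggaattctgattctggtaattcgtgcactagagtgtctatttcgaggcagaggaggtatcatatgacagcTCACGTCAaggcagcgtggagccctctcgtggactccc

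On either strand, TCACGTCA was present in 0.441% of the 32851 RefSeq start windows of 300 bases, and the full element TGACGTCA in 1.79%. Windows were found for 4 of the 7 genes, 7 for Bdnf, 2 for Ntf3 and 1 each for Ntrk2 and Ngfr. Of these 11 windows, the one printed was alone in holding TCACGTCA, and none held TGACGTCA. The E-box CACGTG, in 7.15% of all windows, occurred once, in 1 of the Ntf3 windows. Such matches describe the letters of these windows and not binding.

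The other genes lie on chromosome 6 from 126101412 to 126166715 (Ntf3, minus strand), chromosome 13 from 58806569 to 59129965 (Ntrk2, plus), chromosome 7 from 78175959 to 78738010 (Ntrk3, minus), chromosome 11 from 95568818 to 95587735 (Ngfr, minus), chromosome 3 from 108284082 to 108361443 (Sort1, plus) and chromosome 5 from 36017180 to 36398124 (Sorcs2, minus). Ntrk2 had 10 and Ntrk3 20 annotated transcripts, and each count sums kinase-bearing and truncated forms. Other genes annotated within these spans were themselves counted at few reads. Gm9885, opposite Ntrk3, reached 345 reads in a library and Gm45346, opposite Bdnf, reached 16. Read pairs were counted where both ends mapped to one strand, and whether pairs from the strand opposite a gene were kept apart is not given in the sources used here.

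The labelled regions held their defining transcripts. The summed level of 7 cortical excitatory markers was 1420 to 2060 counts per 1000000 counted reads (CPM) in PFC and 62.1 to 172 CPM in hypothalamus, and that of 9 hypothalamic markers was 397 to 2810 CPM in hypothalamus and 1.25 to 23.3 CPM in PFC. Extraction pools A and B held only hypothalamus and pools C and D only PFC, so that region and extraction pool cannot be told apart. The hypothalamus library of the psilocybin mouse in cage 5 at 4 weeks stood apart, with 2810 CPM of hypothalamic markers against 505 to 881 CPM in its group and the lowest quality weight of all libraries (0.0276). The tests were therefore also run without it and without the library with the next lowest weight (PFC, psilocybin, 3 h, cage 7, weight 0.12).

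Per length of exon, Sort1 and Ntrk2 had the highest medians of the 7 genes in both regions. On the scale of CPM per kilobase of exon (RPKM), the PFC medians over 31 libraries were 89.9 for Sort1, 45.0 for Ntrk2, 7.21 for Ntrk3, 6.65 for Sorcs2, 5.35 for Bdnf, 0.448 for Ntf3 and 0.32 for Ngfr. Sort1 (71.4 to 111 RPKM) did not overlap Ntrk2 (40.7 to 54.9 RPKM), and Ntrk2 did not overlap the genes below it. Ntrk3, Sorcs2 and Bdnf overlapped one another in range, and so did Ntf3 and Ngfr.

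In hypothalamus the order differed, with Ntrk2 first at a median of 58.0 RPKM, then Sort1 at 33.1, Sorcs2 at 10.3, Ngfr at 5.71, Ntrk3 at 4.98, Bdnf at 2.54 and Ntf3 at 0.382 RPKM. The range of Ntrk2 overlapped that of Sort1, and the range of Ngfr (2.28 to 11.9 RPKM) overlapped those of Sorcs2, Ntrk3 and Bdnf. Within libraries the median ratio of Ntrk2 to Bdnf was 8.17 in PFC and 23.1 in hypothalamus. That of Ntrk2 to Ntrk3 was 6.51 and 12, and that of Sort1 to Sorcs2 13.5 and 3.31. These ratios describe transcripts per length, not proteins.

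The regions differed in 6 of the 7 genes, where 76.2% of all genes tested differed (39.6% higher and 36.5% lower in PFC). A call means a Benjamini-Hochberg adjusted p under 0.05 in edgeR's quasi-likelihood test over all 18971 genes, with group and extraction pool in the model. A share of 6 in 7 is near that background, so it is the size and direction in each gene that are described here. In such bulk tissue, fewer cells of a type and less RNA per cell cannot be told apart.

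Of the ligands, Bdnf was 10.7, 15.8 and 21.4 CPM at its lowest, median and highest in hypothalamus and 22.4, 33.2 and 50.6 CPM in PFC. No PFC library overlapped the hypothalamus libraries, as in 11.3% of all genes, and PFC was higher in 30 of 30 mice with both regions, matched by treatment, time and cage. The log2 fold change was 1.11 (SE 0.0453), or 2.16-fold, with an adjusted p of 3.85e-31. Ntf3, a ligand for TrkC, was near the limit of detection with at most 64 reads in a library, and its difference of 0.36 (SE 0.213, adjusted p = 0.116) did not pass the test. Its value was -0.12 in cages 1 to 4 and 0.73 (adjusted p = 0.00846) in cages 5 to 8, which are separate extraction pools, and 0.46 (adjusted p = 0.0348) without the 2 libraries of lowest weight.

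Of the receptors, the most unequal between regions was Ngfr, which encodes p75. It was 7.86, 19.7 and 41.2 CPM at its lowest, median and highest in hypothalamus and 0, 1.10 and 3.09 CPM in PFC. The PFC level was 0.0631 times that of hypothalamus (log2 fold change -3.99, SE 0.184, adjusted p = 1.56e-27), lower in 30 of 30 mice, and the ranges did not overlap. Ntrk3 was higher in PFC by 0.63 on the log2 scale (SE 0.0647) and in 30 of 30 mice, whereas Ntrk2 was lower in PFC by a log2 fold change of -0.38 (SE 0.0359) and in 29 of 30 mice. Ranges overlapped for both, with Ntrk3 at 161 to 330 CPM in PFC and 44.2 to 196 CPM in hypothalamus.

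The sorting receptors went opposite ways. Sort1 was 127, 251 and 303 CPM at its lowest, median and highest in hypothalamus and 540, 681 and 837 CPM in PFC, a log2 fold change of 1.42 (SE 0.0448, adjusted p = 8.05e-37) without overlap. Sorcs2 was 57.6, 91.0 and 106 CPM in hypothalamus and 41.0, 58.5 and 92.9 CPM in PFC, a log2 fold change of -0.63 (SE 0.0522) with overlapping ranges and a lower value in PFC in 30 of 30 mice.

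**Figure D1:**
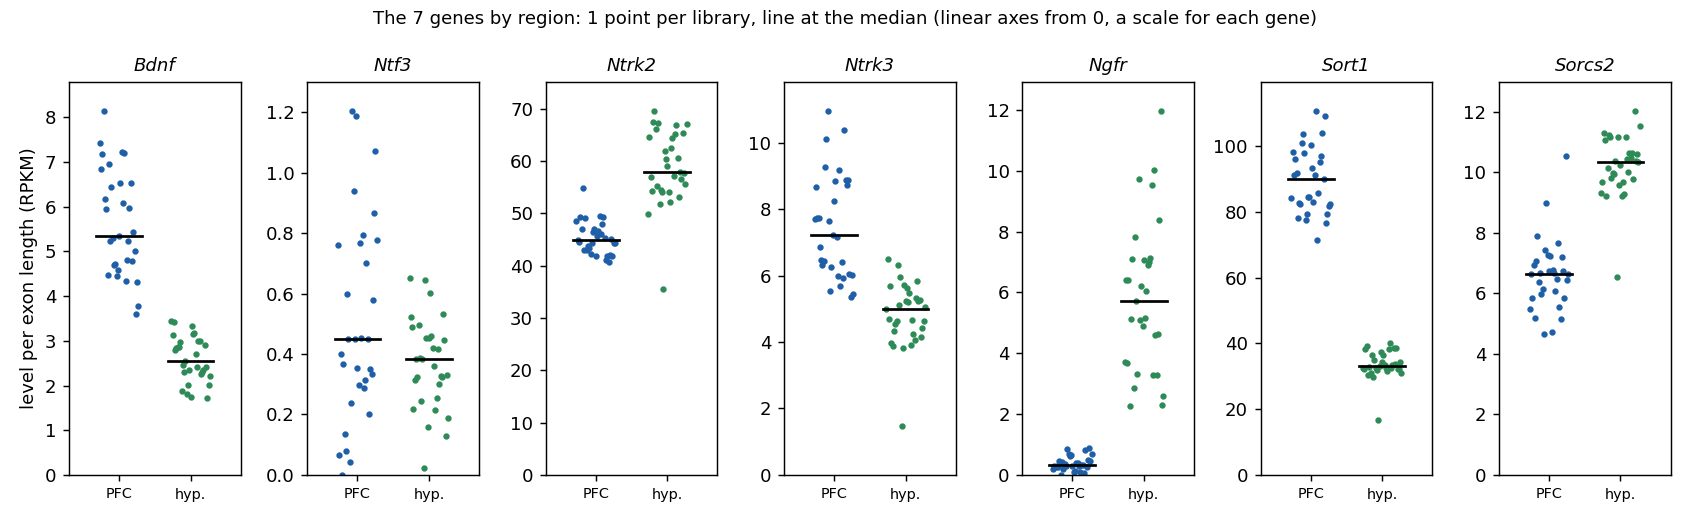
Level of each gene in RPKM, with 1 point for each of the 31 libraries of PFC and of hypothalamus and a line at the median, on linear axes that start at 0 and have their own scale for each gene. Bdnf, Ntrk3 and Sort1 lie higher in PFC, and Ntrk2, Ngfr and Sorcs2 lie higher in hypothalamus. Ntf3 overlaps in part, at 0 to 1.2 RPKM in PFC and 0.0243 to 0.653 RPKM in hypothalamus.

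The same 6 genes differed between regions in each of the 4 combinations of treatment and time taken alone, with 54.9% and 56.2% of all genes called after vehicle and psilocybin at 3 h and 55.2% and 58% at 4 weeks. The log2 difference ran from 0.96 to 1.26 for Bdnf, from 0.55 to 0.79 for Ntrk3, from 1.37 to 1.52 for Sort1, from -0.47 to -0.33 for Ntrk2, from -0.69 to -0.54 for Sorcs2 and from -4.68 to -3.50 for Ngfr. That of Ntf3 ran from -0.35 to 0.73 and was called in none.

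After psilocybin, 0 of the 7 genes differed from vehicle in either region at either time. The share of all genes called was 0.0105% in PFC at 3 h and 0 in the other 3 comparisons, and 1371, 456, 337 and 1823 genes had an unadjusted p under 0.05 in PFC at 3 h, PFC at 4 weeks, hypothalamus at 3 h and hypothalamus at 4 weeks. Of the 7 genes, Bdnf in PFC at 3 h was alone in having such a p. DESeq2 also called 0 of the 7 in each comparison, with 0.0475%, 0.1%, 0% and 0.0686% of all genes. Voom with library quality weights, the study's method but here with a library kept that the study left out, called 1, again Bdnf in PFC at 3 h, where it called 8.18% of all genes.

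At 3 h in PFC, Bdnf was 27.0, 35.6 and 44.9 CPM at its lowest, median and highest in vehicle mice and 27.8, 42.9 and 50.6 CPM in psilocybin mice. The groups overlapped over most of their ranges, and the psilocybin mouse was the higher in 5 of 8 cages. The log2 fold change was 0.18 (SE 0.0864, 95% confidence interval 0.01 to 0.36), with an adjusted p of 0.681 from edgeR. With voom and quality weights the value was 0.32 (SE 0.0752) and limma's adjusted p was 0.00696. In cages 1 to 4 it was 0.24 (adjusted p = 0.354) and in cages 5 to 8 0.15 (adjusted p = 1). Without the 2 libraries of lowest weight, it was 0.24 (adjusted p = 0.102). Leaving out each library in turn gave values from 0.145 to 0.265, none of them called by edgeR.

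At 4 weeks in PFC, Bdnf was 22.4, 30.4 and 40.7 CPM at its lowest, median and highest after vehicle and 27.6, 29.4 and 40.0 CPM after psilocybin. The log2 difference was 0.07 (95% confidence interval -0.11 to 0.25). In hypothalamus at 3 h it was 15.0, 18.7 and 20.7 CPM after vehicle and 17.4, 18.2 and 21.4 CPM after psilocybin, with a difference of 0.02 (-0.16 to 0.21). At 4 weeks it was 10.7, 14.2 and 18.1 CPM and 10.8, 13.4 and 15.8 CPM, with a difference of -0.09 (-0.27 to 0.09). All 3 pairs of groups overlapped, and these intervals are the sizes that the data leave possible.

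**Figure D2:**
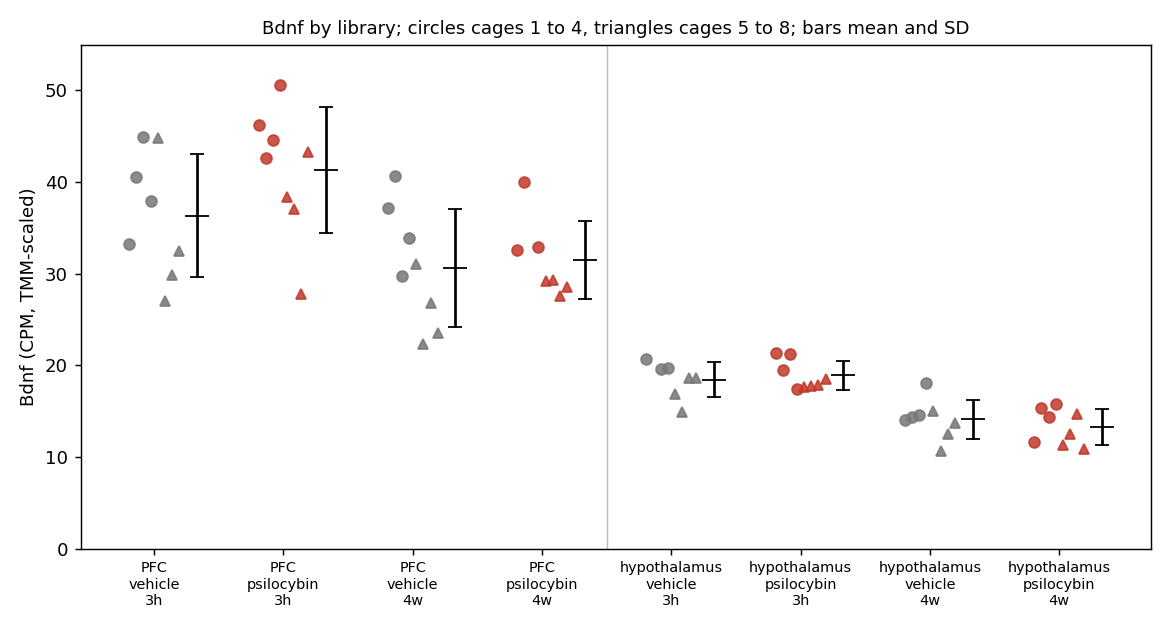
Bdnf in CPM in every kept library, by region, treatment and time (circles for cages 1 to 4, triangles for cages 5 to 8, bars for the mean and SD of each group). PFC libraries lie at 22.4 to 50.6 CPM and hypothalamus libraries at 10.7 to 21.4 CPM, and in hypothalamus the psilocybin groups at 3 h and 4 weeks do not overlap.

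Among the receptors, sorting receptors and Ntf3, none of the values after psilocybin passed the test. Ntrk2 was 807, 894 and 954 CPM at its lowest, median and highest in PFC of vehicle mice at 3 h and 829, 921 and 1060 CPM after psilocybin, and its 4 log2 differences ran from -0.09 to 0.05 with intervals inside -0.23 to 0.20. Ntrk3 differences ran from -0.08 to 0.16. The lowest of each was at 4 weeks in hypothalamus, where without the library that stood apart Ntrk2 differed by -0.01 and Ntrk3 by 0.06. Ngfr in hypothalamus at 3 h was 11.3, 23.8 and 32.8 CPM after vehicle and 7.86, 15.3 and 24.5 CPM after psilocybin. The groups overlapped, the psilocybin mouse was the lower in 7 of 7 cages, and the log2 difference of -0.46 (SE 0.306, 95% confidence interval -1.08 to 0.15, edgeR adjusted p = 1) did not pass the test. Ngfr differences in the other comparisons ran from -0.10 to 0.12.

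Ntf3 in PFC at 3 h was 0.491, 0.69 and 1.36 CPM after vehicle and 0, 0.431 and 1.31 CPM after psilocybin, lower in 7 of 8 cages. Its log2 difference was -0.61 with an SE of 0.421 (edgeR adjusted p = 0.796), and leaving out single libraries gave -1.13 (without the psilocybin library of cage 1) to -0.37 (without the vehicle library of cage 3). Depth limits what can be said of it. Differences of the sorting receptors ran from -0.13 to 0.01 for Sort1 and from -0.15 to 0.05 for Sorcs2. Their most negative values were at 4 weeks in hypothalamus, where the library that stood apart had the lowest level of its group for both. Without the 2 libraries of lowest weight the values there were -0.04 for Sort1 and -0.08 for Sorcs2, neither called.

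**Figure D3:**
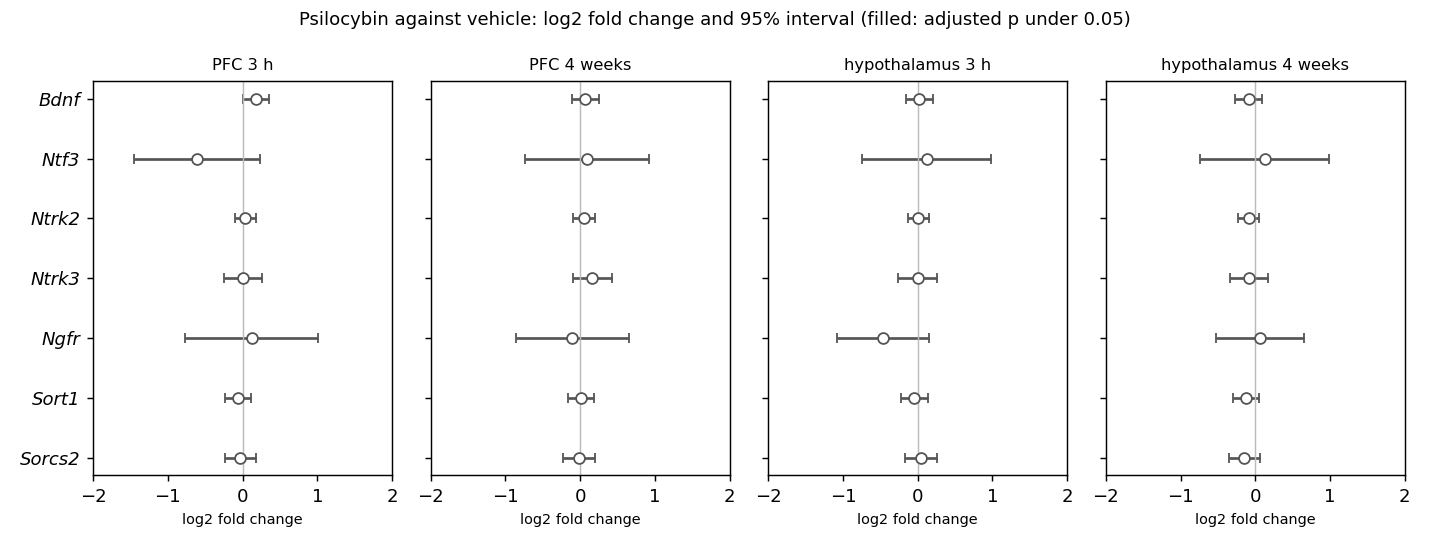
Log2 fold change of psilocybin over vehicle for the 7 genes in each region and time, with the 95% confidence interval. No gene passed an adjusted p of 0.05 (all symbols open), and the widest intervals are those of Ntf3 and Ngfr, in PFC counted at 0 to 64 and 0 to 198 reads a library.

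Between 3 h and 4 weeks, Bdnf was lower at the later time in both regions and after both injections, and it passed the test in 3 of the 4 comparisons. It was the 1 gene of the 7 called in any of them. The share of all genes called lower was 0.522% in hypothalamus after vehicle, 0.743% in hypothalamus after psilocybin, 2.7% in PFC after psilocybin and 2.39% in PFC after vehicle, where Bdnf was not called. The share called in either direction was 0.685%, 1.16%, 5.96% and 4.72% in the same order. Vehicle mice received no drug at either time, so their comparison holds time, age, day of harvest and handling.

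In hypothalamus of psilocybin mice, the 8 libraries at 3 h (17.4 to 21.4 CPM) all lay above the 8 at 4 weeks (10.8 to 15.8 CPM), as in 0.348% of all genes. Bdnf fell by 0.51 on the log2 scale (SE 0.0901), to 0.702 times the earlier level, in 8 of 8 cages, with an adjusted p of 0.000286 from edgeR. The call held with any library left out. Within cages 1 to 4 the value was -0.46 (adjusted p = 0.0768) and within cages 5 to 8 -0.55 (adjusted p = 0.242), so that neither set of 4 cages passed alone.

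In hypothalamus of vehicle mice, Bdnf fell by 0.40 on the log2 scale (SE 0.0926, adjusted p = 0.0179), to 0.76 times the earlier level, in 7 of 7 cages, with overlapping groups. The call was lost without the vehicle library of cage 7 at 3 h (adjusted p = 0.0607), of cage 8 at 3 h (adjusted p = 0.0537) or of cage 6 at 4 weeks (log2 fold change -0.36, adjusted p = 0.0643). The last of these had the highest summed level of wound and immune markers of its group, 225 CPM against 51.9 to 98.2 CPM, and of striatal markers, 359 CPM against 98.6 to 148 CPM. Bdnf was also not called without the pool term or with all 64 libraries. Within cages 1 to 4 and 5 to 8 the values were -0.38 (adjusted p = 0.378) and -0.41 (adjusted p = 0.796).

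In PFC of psilocybin mice, Bdnf fell by 0.37 (SE 0.0899, adjusted p = 0.007), to 0.774 times the earlier level, in 7 of 7 cages, with overlapping groups. In cages 1 to 4 it was -0.39 (adjusted p = 0.0496) and in cages 5 to 8 -0.35 (adjusted p = 0.354). In PFC of vehicle mice the value was -0.26 (SE 0.0868, 95% confidence interval -0.43 to -0.08) and did not pass (adjusted p = 0.0758), with the later library lower in 6 of 8 cages. DESeq2, which called 5.98% of all genes there, called it (adjusted p = 0.0483), as did edgeR without the vehicle library of cage 1 at 3 h (adjusted p = 0.0334), of cage 6 at 3 h (adjusted p = 0.0404) or of cage 2 at 4 weeks (adjusted p = 0.0406). Voom, which called 1484 of 18971 genes there, did not call Bdnf. With each library left out in turn, edgeR called it in 3 of 16 fits, at values from -0.298 to -0.177. In cages 1 to 4 the value was -0.15 (adjusted p = 0.384) and in cages 5 to 8 -0.36 (adjusted p = 0.46).

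Some markers of other cells were called over time in PFC. Their counts are to be read against 5.96% of all genes called there after psilocybin and 4.72% after vehicle. In psilocybin mice 2 of 7 astrocyte markers (Aldoc and Aldh1l1), 1 of 6 microglial markers (Tmem119) and 1 of 9 tested wound and immune markers (Cd14) fell, and the astrocyte sum was 7160 to 10800 CPM at 3 h and 6120 to 8700 CPM at 4 weeks. In vehicle mice 1 of 7 astrocyte markers (Aldoc) and Tmem119 fell, and 2 of 9 hypothalamic markers (Nkx2-1 and Trh) rose, with a hypothalamic sum of 1.93 to 6.63 CPM at 3 h and 3.02 to 23.3 CPM at 4 weeks. None of the 7 cortical excitatory markers was called, with sums of 1440 to 2030 and 1420 to 1990 CPM in psilocybin mice. In hypothalamus no marker of these lists was called. The part of these shifts in the Bdnf values was not tested.

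The receptors, sorting receptors and Ntf3 were called in none of the 4 comparisons over time. Ntrk2, the receptor of Bdnf, was 807, 894 and 954 CPM at 3 h and 784, 809 and 872 CPM at 4 weeks in PFC of vehicle mice, a log2 difference of -0.13 (SE 0.0703, adjusted p = 0.352) that was lower in 8 of 8 cages. Its other differences ran from -0.12 to -0.02. Ngfr in the same mice was 0.365, 1.00 and 1.36 CPM at 3 h and 0.26, 1.6 and 3.09 CPM at 4 weeks, a difference of 1.06 (SE 0.398, adjusted p = 0.116 from edgeR) at few reads. In PFC after psilocybin Ngfr differed by 0.84 (adjusted p = 0.24) and Ntf3 by 0.79 (adjusted p = 0.297), the latter from 0.60 to 1.24 with single libraries left out. Over 11 other settings of the processing, Ntf3 ran from -0.527 to 1.611 and Ngfr from 0.112 to 1.245, never called. Differences of Ntrk3, Sort1 and Sorcs2 all lay between -0.12 and 0.18. In hypothalamus after psilocybin, leaving out the library that stood apart gave -0.03 for Sort1, -0.03 for Sorcs2, 0.11 for Ntrk3 and -0.04 for Ntrk2, none of them called.

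**Figure D4:**
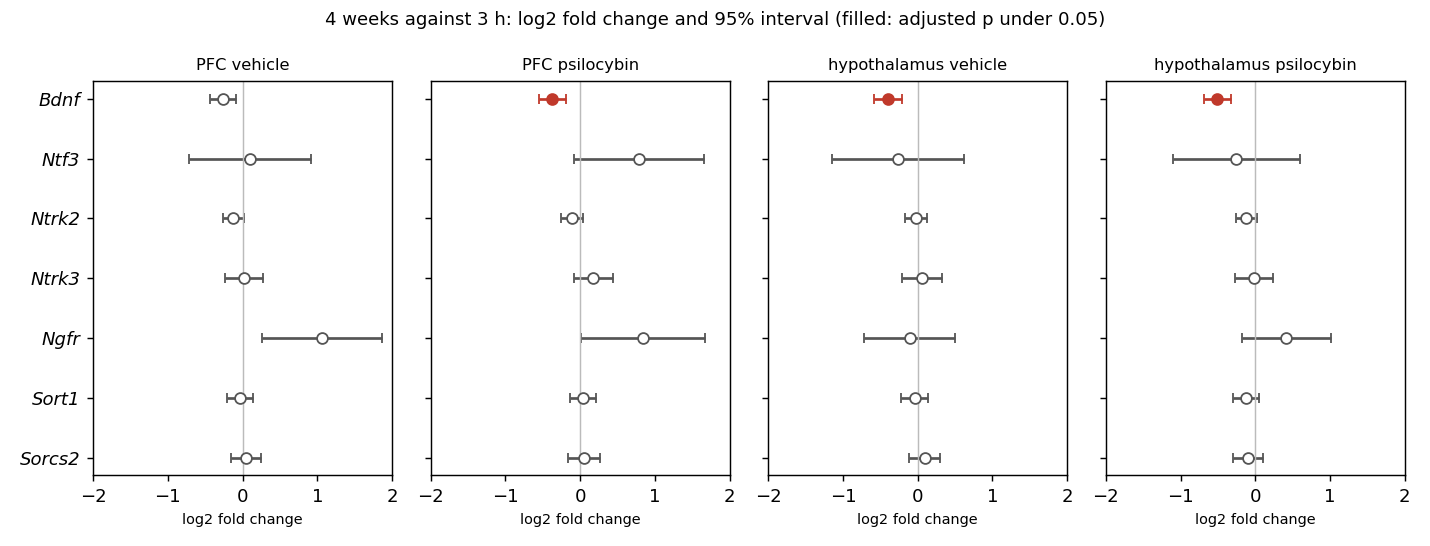
Log2 fold change of 4 weeks over 3 h for the 7 genes in each region and treatment, with the 95% confidence interval and filled symbols where the adjusted p was under 0.05. Bdnf lies below 0 in all 4 comparisons and is filled in 3, and Ngfr in PFC of vehicle mice lies highest without being filled.

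Whether these effects differed between regions or times was tested directly, and 0 of the 7 genes passed, with 0.0369% of all genes called for the difference of the time effect between regions and 0 for the other 3 differences. For Bdnf, the psilocybin effect at 3 h was greater in PFC than in hypothalamus by 0.16 on the log2 scale (95% confidence interval -0.09 to 0.41) and greater in PFC at 3 h than at 4 weeks by 0.11 (-0.14 to 0.36). In hypothalamus the effect at 3 h exceeded that at 4 weeks by 0.11 (-0.14 to 0.37). The time effect in vehicle mice was less negative in PFC than in hypothalamus by 0.14 (-0.11 to 0.39). That of Ngfr was greater in PFC by 1.17 (adjusted p = 0.73 from edgeR), the 1 value of these with an unadjusted p under 0.05. DESeq2 and voom called 0 of the 7 in each. In the order given for Bdnf, DESeq2 called 0, 0.0211%, 0 and 0.117% of all genes and voom called 0.0633%, 0.00527%, 0 and 0.153%.

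Ntf5 (neurotrophin-4), the other ligand of TrkB, had medians of 5 reads in PFC and 1 read in hypothalamus and was not tested.

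A wider set of 56 genes, all of them tested, covered genes of neurotrophin processing, p75 signalling, Trk signalling, Bdnf transcription and responses to TrkB. After psilocybin edgeR and DESeq2 called 0 of 56 in each of the 4 comparisons, and edgeR gave 2, 2, 0 and 1 of them an unadjusted p under 0.05 in PFC at 3 h, PFC at 4 weeks, hypothalamus at 3 h and hypothalamus at 4 weeks. Voom called 8 of 56 in PFC at 3 h, against 8.18% of all genes, and 0 in the others, where it called 0 of all genes. The median log2 difference of the set was -0.03, -0.01, -0.01 and -0.07, against medians within 0.01 of 0 over all genes.

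Over time, 4 of 56 genes were called in PFC of vehicle mice, 4 in PFC of psilocybin mice, 0 in hypothalamus of vehicle mice (3 with an unadjusted p under 0.05, 0 by DESeq2, which called 1.01% of all genes, and 5 by voom, which called 5.91%) and 2 in hypothalamus of psilocybin mice, shares to be read against the 4.72%, 5.96%, 0.685% and 1.16% of all genes. Among genes of processing, Plat (tissue plasminogen activator, which starts the cascade that cuts proBDNF outside the cell) fell in PFC after both injections, with log2 fold changes of -0.30 (adjusted p = 0.0455) and -0.40 (adjusted p = 0.00716). Pcsk5, a proprotein convertase, rose in PFC of vehicle mice by 0.37 (adjusted p = 0.0475).

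Among genes that respond to TrkB, Arc, an immediate early gene of synapses, fell in PFC by 1.68 on the log2 scale after vehicle and by 2.40 after psilocybin (adjusted p = 0.00324 and 9.06e-05). Arc was 43.8, 201 and 442 CPM at its lowest, median and highest in vehicle mice at 3 h and 19.6, 35.9 and 250 CPM at 4 weeks. After psilocybin it was 46.2, 206 and 322 CPM and 23.4, 30.4 and 37.9 CPM. Only the psilocybin groups did not overlap, as in 0.965% of all genes in that comparison. Arc is also induced by neuronal activity without TrkB. None of the 8 genes of Bdnf transcription, the activity-dependent Npas4 among them, was called over time by edgeR. DESeq2 called Carf in PFC after both injections and Creb1 in hypothalamus after psilocybin, where it called 5.98%, 7.97% and 2.8% of all genes. Voom called Carf and Crtc1 in PFC after vehicle, where it called 1484 of 18971 genes. It called Carf and Crem in PFC after psilocybin, where it called 3552 genes. In hypothalamus after vehicle voom called Creb1, where it called 5.91% of all genes. Among genes of Trk signalling, Rapgef1 fell in PFC after vehicle (-0.21), and Shc2 and Plcg1 rose in PFC after psilocybin (0.30 and 0.21). Crkl and Ptpn11 fell in hypothalamus after psilocybin (-0.28 and -0.25). Without the 2 libraries of lowest weight, Crkl and Ptpn11 differed by -0.19 and -0.17 there, both still called by edgeR (adjusted p = 0.00302 and 0.0175).

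Between regions, 27 of the 56 genes were higher and 22 lower in PFC, where 39.6% of all genes were higher and 36.5% lower. The genes named are the 3 with the smallest p of each list. Of 13 processing and sorting genes, 6 were higher and 5 lower, and Serpini1 (neuroserpin, an inhibitor of tissue plasminogen activator), Sorl1 and Sorcs3 were higher in PFC by 1.11, 0.88 and 0.63 on the log2 scale. Of 10 p75 partners, 3 were higher and 4 lower. Tnfrsf19 (TROY) and Lingo1 were higher by 1.71 and 1.95, and Maged1 was lower at -0.97. Tnfrsf19 and Lingo1, which can form a receptor complex with or in place of p75, thus lay the opposite way from Ngfr. Of 22 Trk signalling genes, 11 were higher and 10 lower. Nedd4l and Dok5 were each higher by 0.91 and Lrig1, a negative regulator of receptor kinases, was lower at -2.04. Of 8 regulators of Bdnf transcription, 5 were higher and 2 lower. Mef2c, Npas4 and Crtc1 were higher by 3.81, 1.55 and 0.98, and of the 3 genes that respond to TrkB, Arc and Nptx2 were higher by 2.37 and 1.32 while Vgf was lower at -0.18.

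**Figure D5:**
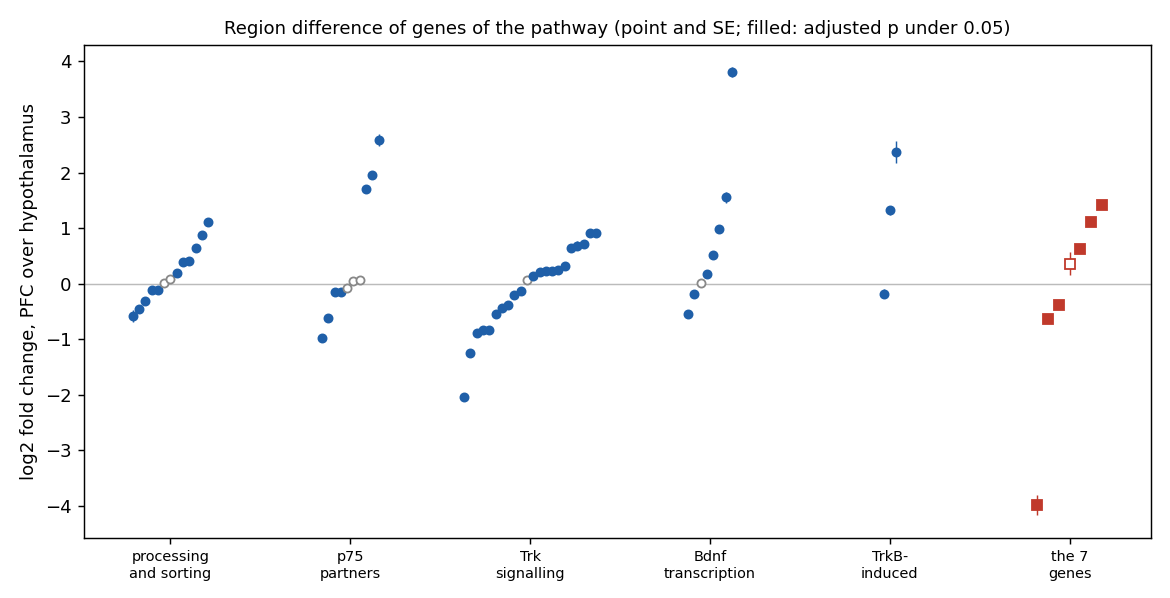
Log2 fold change of PFC over hypothalamus for each tested gene of the 5 lists and for the 7 genes, with the standard error and filled symbols where the adjusted p was under 0.05. Within most groups genes lie on both sides of 0, and those of the lists run from Lrig1 at -2.04 to Mef2c at 3.81.

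Within regions, levels also varied between extraction pools. Bdnf was 29.8, 40.0 and 50.6 CPM at its lowest, median and highest in pool C and 22.4, 29.3 and 44.8 CPM in pool D of the PFC, and 11.7, 17.4 and 21.4 CPM in pool A and 10.7, 15.0 and 18.7 CPM in pool B of the hypothalamus. Medians of Ntrk3 were 263 and 190 CPM in pools C and D, and 160 and 129 CPM in pools A and B. Pools C and A held cages 1 to 4 and pools D and B cages 5 to 8 of every group, so that pool was balanced over treatment and time but for the 2 libraries left out, 1 each of pools A and C.

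After group and pool were removed, the genes most like each of the 7 over the 31 libraries of a region were named by Pearson's r of log2 CPM, as a description. In PFC Bdnf was most like Pcsk1 (r = 0.87), a proprotein convertase of the regulated secretory pathway, then Map4k3 and Stim2. Ntrk3 was most like Grin2b (0.924), an NMDA receptor subunit, Sort1 most like Ptprj (0.966), Sorcs2 most like Sez6 (0.86), Ntrk2 most like Rhpn2 (0.781), Ngfr most like Gm8325 (0.86) and Ntf3 most like Gm49331 (0.697). Among the 7 genes themselves, the highest r in PFC was that of Ntrk3 with Sort1 (0.613) and the lowest that of Bdnf with Sorcs2 (-0.447).

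In hypothalamus Ngfr was most like Lhx6 (0.905) and Gbx1 (0.877), transcription factors of ventral forebrain neurons, and Bdnf most like Gm12371 (0.714). Ntrk2 was most like Gna13 (0.949), Ntrk3 most like Huwe1 (0.974), Sort1 most like Lmtk2 (0.956), Sorcs2 most like Mfn2 (0.884) and Ntf3 most like Ube2e3 (0.712). The pairs Ntrk3 and Sort1 (0.81), Sort1 and Sorcs2 (0.734) and Ntrk3 and Sorcs2 (0.643) moved together there. These libraries share dissection and depth, and the library that stood apart held the lowest value of its group for Ntrk2, Ntrk3, Sort1 and Sorcs2. The correlations were not computed without that library, so its part in them was not tested.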

How the data were processed

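Poly-A RNA libraries (TruSeq Stranded mRNA, paired-end, Illumina) were aligned by the authors with STAR 2.7.2b to GRCm38, and reads were counted per gene with featureCounts 1.6.2. The deposited values are whole-number counts per gene, not normalized, for 64 libraries. Gene symbols were matched for 55141 of 55401 identifiers. The 7 genes and the gene lists were chosen with earlier results of these data known.

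Libraries under 1000000 counted reads were left out, and 62 with a median of 18287978.5 reads were scaled by TMM, filtered with filterByExpr (minimum count 10) and fitted with edgeR 4.0.16 (R 4.3.3) by robust quasi-likelihood tests on group and extraction pool. All 8 groups entered the fit, so that they shared one estimate of the spread. A gene was called at a Benjamini-Hochberg adjusted p under 0.05 over all genes tested. CPM used TMM library sizes, and RPKM divided CPM by the summed exon length in the count table. The study also left out a library rich in wound and immune transcripts without naming it, and it was kept here. Libraries of one group came from separate mice, and a chi-square of the counts divided by its degrees of freedom came to 3.85 or more in each of 210 pairs within groups, so none was a copy. More reads give less counting error, and genes at few reads (Ntf3 and Ngfr in PFC) are the least certain.

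The genes named are the 7, called genes of the lists (at most 3 a list and comparison, by smallest p), Ntf5, the 3 genes most like each of the 7 in a region, and markers that moved with a result. Genes of Bdnf transcription that DESeq2 or voom called, but edgeR did not, were named after their values were seen. Some genes of the family are not reported here. Replicate numbers are cage numbers. Deviations of libraries with one cage number had a mean correlation of 0.0806 in PFC and 0.0723 in hypothalamus once group means were removed, and of -0.0415 and -0.0236 once pool was removed too. The labels used here give no animal identifier, so libraries of the 2 regions were tied to a mouse by treatment, time and cage, and their consensus correlation in limma was 0.0282. The edgeR fit, without the filter on low counts, was tried on simulated counts for psilocybin against vehicle in PFC at 3 h. The other comparisons, DESeq2 and voom were not tried in this way. Alternatives were RLE scaling, other filters, no pool term, a cage or animal block, DESeq2 1.42.0, voom with quality weights and an animal block (limma 3.58.1, the study's method), other sets of libraries and each library left out in turn, with the genes, scaling and trended dispersion of the full fit kept.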

Additional observations from a re-analysis of the deposited data

Results flagged for a closer look

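Of 56 sets of libraries (7 genes in 8 groups), 4 held a library far from the rest of its group by Dixon's ratio, where chance alone gives about 1 in 20. In PFC of psilocybin mice at 4 weeks, cage 2 had 40.0 CPM of Bdnf against 27.6 to 32.9 CPM in the others, and without it the fall of Bdnf from 3 h was -0.40 (edgeR adjusted p = 0.00602). Its endothelial and mural marker sum was 331 CPM against 232 to 308 CPM, and its microglial and thalamic sums were 308 CPM against 327 to 466 CPM and 33.4 CPM against 36 to 59.7 CPM. In hypothalamus of psilocybin mice at 4 weeks, cage 5 had 127 CPM of Sort1 against 225 to 283 CPM and 57.6 CPM of Sorcs2 against 84.4 to 98.2 CPM. That library held 2810 CPM of hypothalamic markers against 505 to 881 CPM, 10100 CPM of oligodendrocyte markers against 6090 to 9150 CPM, 312 CPM of microglial markers against 196 to 283 CPM and 131 CPM of endothelial and mural markers against 141 to 220 CPM. In PFC of vehicle mice at 4 weeks, cage 6 had 92.9 CPM of Sorcs2 against 45.4 to 63.5 CPM, beside 1200 CPM of striatal markers against 119 to 489 CPM and 1480 CPM of cortical excitatory markers against 1520 to 1940 CPM. Whether these marker sums account for the levels was not tested.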

How the results depend on the processing

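Over 13 other settings, 143 of 157 counts of called genes among the 7 did not change, and no value called reversed its sign. Of 1073 single values, 8 lost and 5 gained a call, 56 moved by more than 1 SE and 97 uncalled ones took the other sign. Between regions the count of 6 became 7, with Ntf3, without the 2 libraries of lowest quality weight and in cages 5 to 8, and 5 with at least 10 counts in every library, where Ngfr was not tested. The other changed counts concerned Bdnf. In PFC at 3 h, voom called 1 gene after psilocybin. In PFC of vehicle mice, 1 was called over time by DESeq2 and 1 without the 2 libraries of lowest quality weight, an alternative chosen after seeing the data, and leaving out single libraries gave 0 to 1. In hypothalamus of vehicle mice, 0 were called over time without the pool term (adjusted p = 0.172), with all 64 libraries (adjusted p = 0.0861), without the library with most wound and immune markers (adjusted p = 0.0637 with filter, scaling and dispersion computed anew), in cages 1 to 4 and in cages 5 to 8, and leaving out single libraries gave 0 to 1. In psilocybin mice, 0 were called over time in PFC in cages 5 to 8, and 0 in hypothalamus in cages 1 to 4 and in cages 5 to 8. These sets of cages hold fewer libraries, and for the other settings the cause was not tested. With the replicate block by cage, the changes of Bdnf over time were -0.25 (adjusted p = 0.0775) and -0.37 (0.00793) in PFC and -0.40 (0.0208) and -0.51 (0.000334) in hypothalamus, after vehicle and psilocybin, and the cage block and, between regions, the block by animal (Bdnf 1.11) changed no call. A filter of at least 10 counts in every library left Ntf3 and Ngfr untested. Depth limits Ntf3, at 0 to 64 reads, and Ngfr in PFC, at 0 to 198 reads.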
